A study of Homo sapiens with 2 samples.

Results

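Fatty acid synthesis, elongation and lipid assembly was followed through 51 genes that build fatty acids, desaturate and lengthen them, activate them and join them to glycerol. Genes were matched by platform gene symbol in a table of 54675 probe sets that names 19775 genes. Probe sets with 1 gene symbol measured 45 of the 51 members. FADS1 and ELOVL1 appeared only on probe sets that also list a microRNA gene, and MCAT, HACD1, ACSL3 and AGPAT3 are not analysed here. The arrays compared the human prostate cancer line C4-2B, labelled enzalutamide sensitive, with C4-2B-MDVR, a line derived from it under long exposure to enzalutamide, an antiandrogen, and labelled enzalutamide resistant. The submitters describe both lines as untreated and grown in RPMI-1640 with 10% fetal bovine serum, penicillin and streptomycin, and 1 array was made for each from total RNA. Resistance is represented by 1 selected line, so what belongs to the drug selection and what belongs to that line cannot be told apart. With 1 array per line no p-value, SD or SE can be given, and precision is limited by the number of arrays.

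The labels of the resistant sample conflict. Its title, source and cell line fields name C4-2B-MDVR, whereas its description field names a docetaxel-resistant line, TaxR. The cell line field was followed, so every difference below is the log2 intensity on the array labelled C4-2B-MDVR minus that on the array labelled C4-2B. ABCB1, a drug efflux pump gene linked to taxane resistance, was below the detection floor on both arrays, with intensities of 33.2 for C4-2B and 31.0 for the library labelled C4-2B-MDVR. These values are from 1 of its 2 probe sets, the one with the higher mean, and which label is right was not tested. Each array's floor was its median intensity, which was 41.9 on the C4-2B array and 43.5 on the other, and a gene counted as above it when its brighter value reached the floor of that array. Of the prostate luminal markers all 8 measured were above the floor, and their intensities summed to 19063 in the parental and 8846 in the resistant line. KLK3, the gene for prostate-specific antigen, was at 8379 and 172, SLC45A3 at 1091 and 102, and KLK2 at 1263 and 295. The other 5 (FOLH1, HOXB13, FOXA1, KRT8 and KRT18) differed by −0.10 to 0.32. Of the adipocyte markers, relevant to lipid genes, 3 of 6 were above the floor. These were PLIN1 at 61.2 and 74.9, CIDEC at 78.4 and 79.8 and LPL at 104 and 29.8. ADIPOQ, LEP and FABP4 were under the floor on both arrays. Summed intensity of the 6 was 281 and 225, and only LPL among them was lower in C4-2B-MDVR. Above the floor were also 2 of 6 fibroblast markers (sums of 371 and 344), 2 of 4 blood markers (177 and 190) and 2 of 4 endothelial markers (163 and 168).

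Fatty acids are made in the cytosol from acetyl-CoA, which ACLY cleaves from citrate, through carboxylation by ACACA and repeated condensation by FASN with NADPH from enzymes such as ME1. The product is lengthened in the endoplasmic reticulum by a cycle that an ELOVL elongase starts, and double bonds are set by SCD and FADS desaturases. Acyl-CoA synthetases then activate fatty acids for the acyltransferases, lipins and DGAT enzymes that assemble phospholipid and triglyceride. In prostate cancer cells lipogenesis is known to be stimulated by androgen, in part through SREBF1, the master transcription factor of the pathway.

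Lipogenic genes were lower in C4-2B-MDVR at some steps of the pathway and not at others. Of the 40 members that passed the floor, 9 (22.5%) showed a 2-fold or larger decrease on the C4-2B-MDVR array, beside 3.50% of all 13437 genes above the floor. They were ELOVL7, ELOVL2, ACSL1, ME1, ELOVL5, SREBF1, AGPAT5, FASN and SCD. The desaturase SCD5 and the elongase ELOVL3 were 2-fold or more higher, 5.00% of members beside 3.17% of all genes. The other 29 members lay within 2-fold, and the median over the 40 was −0.03, beside 0.04 over all genes, with 21 members below 0 and 19 above. The passing of the floor rested on C4-2B-MDVR alone for ELOVL3, THRSP and LPIN3 and on C4-2B alone for ELOVL2.

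The count of lower members depended on how a gene's probe sets were read. A gene was represented by its probe set with the highest mean, and with the mean of all its probe sets 4 of 34 members (11.8%) were 2-fold or more lower, ELOVL7, ACSL1, ME1 and AGPAT5, beside 2.57% of all genes. When values below the floor were set to the floor, 8 members were lower and 1 higher, beside 3.14% and 2.76% of genes, because ELOVL2 was then at −0.34 and ELOVL3 at 0.43. At 1.5-fold or more, 11 members (27.5%) were lower and 5 (12.5%) higher, beside 9.32% and 8.26% of genes, and at 3-fold or more 2 were lower and 2 higher (5.00% each), beside 1.20% and 1.45%. In bulk RNA, fewer cells that express a gene and less of its RNA per cell cannot be told apart.

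**Figure D1:**
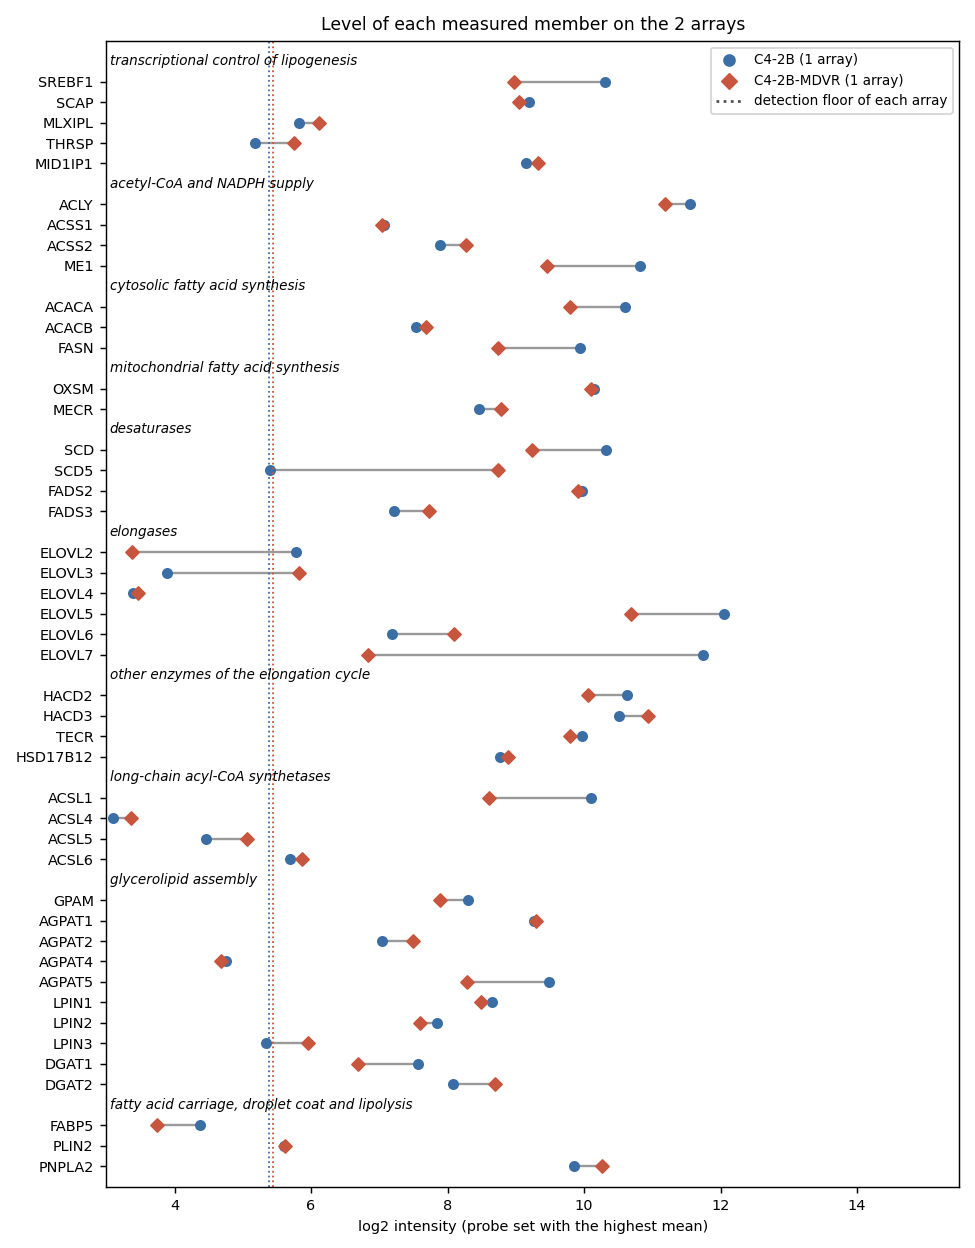
Log2 intensity of the 45 measured members in C4-2B (circles) and C4-2B-MDVR (diamonds), 1 array each, grouped by role, with the detection floor of each array as a dotted line. The longest bars belong to ELOVL7, lower by 4.92, and SCD5, higher by 3.35, and 5 members lie under the floor on both arrays.

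**Figure D2:**
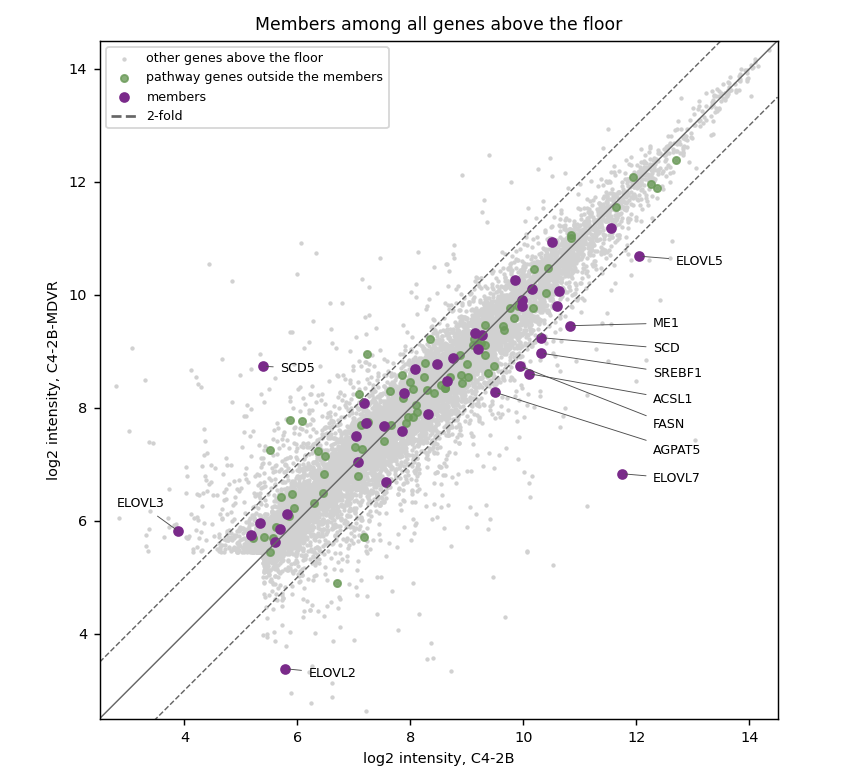
Log2 intensity in C4-2B (x axis) and C4-2B-MDVR (y axis) of the 13437 genes above the floor (grey), the 77 pathway genes outside the members (green) and the 40 members (purple), with dashed lines at 2-fold. The 9 lower members lie below the lower dashed line, and SCD5 and ELOVL3 above the upper line.

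Among the regulators SREBF1 was the member that differed by 2-fold or more. SREBF1 went from an intensity of 1269 in C4-2B to 501 in C4-2B-MDVR, 2.53-fold lower (−1.34). Its other probe set, at 90.9 and 80.4, differed by −0.18, so the size of the SREBF1 difference rests on 1 of its 2 probe sets. SCAP, which escorts the SREBP precursors out of the endoplasmic reticulum, was at 588 and 529 (−0.15). MLXIPL, a glucose-responsive lipogenic factor also known as ChREBP, was at 56.5 and 69.4 (0.30), close to the floor on both arrays. THRSP and MID1IP1 are related proteins that promote lipogenesis, MID1IP1 by helping acetyl-CoA carboxylase to polymerize. MID1IP1 was at 568 and 640 (0.17). THRSP was at 36.3 and 53.6, below the C4-2B floor and, by bound, at least 1.28-fold higher. Its remaining probe sets, at 27.6 and 37.7 and at 26.8 and 24.4, were under the floor on both arrays. The other 4 members of the group differed by 0.56 or less in size.

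The promoter of SREBF1 is shown as the 250 bases before its RefSeq start farthest upstream, because it is the lower regulator of the group. In the windows printed here capitals mark the E-box CACGTG, the CCAAT box (CCAAT, or ATTGG on the other strand), which NF-Y binds, and the GC box (GGGCGG, or CCGCCC), which Sp1-type factors bind. The SREBF1 window (GRCh38.p14, chr17:17836987-17837236, minus strand) held 3 GC boxes, 0 E-boxes and 0 CCAAT boxes.
SREBF1: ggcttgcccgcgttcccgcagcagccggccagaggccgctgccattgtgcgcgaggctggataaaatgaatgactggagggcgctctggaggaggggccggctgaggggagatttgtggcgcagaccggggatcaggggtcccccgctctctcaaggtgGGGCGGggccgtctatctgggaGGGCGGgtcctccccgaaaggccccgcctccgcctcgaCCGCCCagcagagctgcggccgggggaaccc

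Supply of acetyl-CoA and NADPH differed mainly at malic enzyme. ME1, which makes cytosolic NADPH and pyruvate from malate, went from 1811 to 702, 2.58-fold lower (−1.37). A second ME1 probe set above the floor went from 617 to 127 (−2.28), and the third was under the floor on both arrays (20.1 and 23.5). Both readable probe sets were therefore lower. ACLY was at 2994 and 2341 (−0.36), but its other probe sets differed by 0.11 and 0.17. ACSS2, which makes acetyl-CoA from acetate in cytosol and nucleus, was at 236 and 307 (0.38). Its mitochondrial relative ACSS1 was at 134 and 132 (−0.03), and its second readable probe set was at 0.10.

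In the central cytosolic pathway FASN and ACACA were lower in the probe set that stands for them and higher in their other one. FASN, the multifunctional synthase that builds palmitate, went from 978 to 428, 2.29-fold lower (−1.19). Its other probe set, dimmer and nearer the floor, was at 62.3 and 80.8 (0.38), so the FASN probe sets pointed in opposite directions. ACACA, the cytosolic acetyl-CoA carboxylase, went from 1548 to 889 (−0.80), short of 2-fold. The second ACACA probe set went the other way, from 229 to 334 (0.54). ACACB, the carboxylase form at mitochondria whose product restrains fatty acid oxidation, was at 186 and 206 (0.14). The 6 ACACB probe sets above the floor lay between −0.06 and 0.26.

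Mitochondria hold a separate synthesis pathway that supplies the precursor of lipoic acid. OXSM, its condensing enzyme, was at 1133 and 1100 (−0.04). MECR, its enoyl reductase, was at 354 and 439 (0.31). Both were within 2-fold.

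The desaturases split by gene. SCD, which sets the first double bond in saturated acyl-CoA, went from 1274 to 606, 2.10-fold lower (−1.07), and SCD5, its paralog of brain and pancreas, went from 42.0 to 427, 10.2-fold higher (3.35). Only 21 of the 13437 genes had a higher difference than SCD5. The C4-2B value of SCD5 lies at the floor of 41.9, so it is close to a bound. Neither gene had probe sets that agreed. The other 3 SCD probe sets went from 487 to 456 (−0.10), from 293 to 277 (−0.08) and from 203 to 237 (0.22). The other 2 SCD5 probe sets above the floor went from 65.1 to 68.4 (0.07) and from 55.7 to 60.2 (0.11), and the last was under the floor. The SCD and SCD5 differences of 2-fold or more thus each come from 1 probe set.

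The fatty acid desaturases of polyunsaturated lipids were within 2-fold. FADS2, which starts the desaturation of essential fatty acids, was at 1003 and 959 (−0.07), with −0.26 in its other probe set. FADS3, which desaturates sphingoid bases, was at 149 and 213 (0.51) in one probe set and at 141 and 205 (0.54) in the other. The 3 probe sets listed under both FADS1 and MIR1908 went from 470 to 427, from 398 to 376 and from 836 to 771, differences between −0.14 and −0.08. FADS1, FADS2 and FADS3 lie next to each other in the genome, and their probe sets lay between −0.26 and 0.54.

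Promoter windows of SCD and SCD5 are shown side by side because these paralogs differed in opposite directions. SCD (GRCh38.p14, chr10:100346983-100347232, plus strand) held 2 CCAAT boxes and 2 GC boxes. SCD5 (chr4:82798797-82799046, minus strand) held 1 CCAAT box, on the other strand, and 4 GC boxes.
SCD: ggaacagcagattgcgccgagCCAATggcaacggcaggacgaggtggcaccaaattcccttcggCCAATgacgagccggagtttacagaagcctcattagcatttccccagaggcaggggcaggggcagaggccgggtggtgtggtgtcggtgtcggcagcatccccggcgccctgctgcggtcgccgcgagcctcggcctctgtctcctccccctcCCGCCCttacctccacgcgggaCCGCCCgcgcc
SCD5: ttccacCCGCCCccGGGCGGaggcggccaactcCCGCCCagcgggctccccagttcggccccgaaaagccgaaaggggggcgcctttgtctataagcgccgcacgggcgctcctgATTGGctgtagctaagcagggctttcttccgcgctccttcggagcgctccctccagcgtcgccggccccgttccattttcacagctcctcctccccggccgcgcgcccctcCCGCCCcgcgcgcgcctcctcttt

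Of the 5 elongases above the floor, ELOVL7, ELOVL5 and ELOVL2 were 2-fold or more lower and ELOVL3 higher, beside 3.50% and 3.17% of all genes. ELOVL2 and ELOVL3 passed the floor through 1 array each, and with values below the floor set to it 2 elongases were lower and 0 higher, beside 3.14% and 2.76%. ELOVL7, which extends long-chain fatty acyl-CoA and is known as an androgen-responsive gene of prostate cancer cells, went from 3442 to 114, 30.2-fold lower. Only 4 of the 13437 genes had a lower difference than its −4.92, and it was above the floor on both arrays. ELOVL7 had 1 probe set, so no other reading of it was at hand. ELOVL5, which extends polyunsaturated fatty acids, went from 4248 to 1647, 2.58-fold lower (−1.37). Its remaining 3 probe sets were close to the floor. Those at 54.5 and 31.5 and at 57.0 and 38.5 had a resistant line value under it, which leaves bounds of at least 1.25-fold and at least 1.31-fold lower, and the last was at 55.4 and 54.8 (−0.01). The ELOVL5 difference of 2-fold or more thus comes from 1 probe set.

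ELOVL2, which extends polyunsaturated chains further, was at 55.1 and 10.4 (−2.40), and by bound at least 1.27-fold lower. Its other probe set was under the floor on both arrays, at 24.9 and 14.0. ELOVL3, an elongase of saturated and monounsaturated chains in skin and brown fat, was at 14.9 and 56.3 (1.92), and by bound at least 1.34-fold higher. Both genes were under the floor on 1 array and near it on the other. ELOVL6, which turns palmitate into stearate, went the other way from ELOVL5 and ELOVL7. It was at 145 and 273, 1.87-fold higher (0.91), and at 64.4 and 167, 2.59-fold higher (1.37), in its second probe set above the floor. Counted by the mean of its probe sets above the floor ELOVL6 was at 1.14 and would join the higher members. ELOVL4, an elongase of very long chains in retina and skin, was at 10.5 and 11.0, under the floor on both arrays. The 2 probe sets listed under both ELOVL1 and MIR6734 were at 1117 and 1260 (0.17) and at 1127 and 1088 (−0.05).

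**Figure D3:**
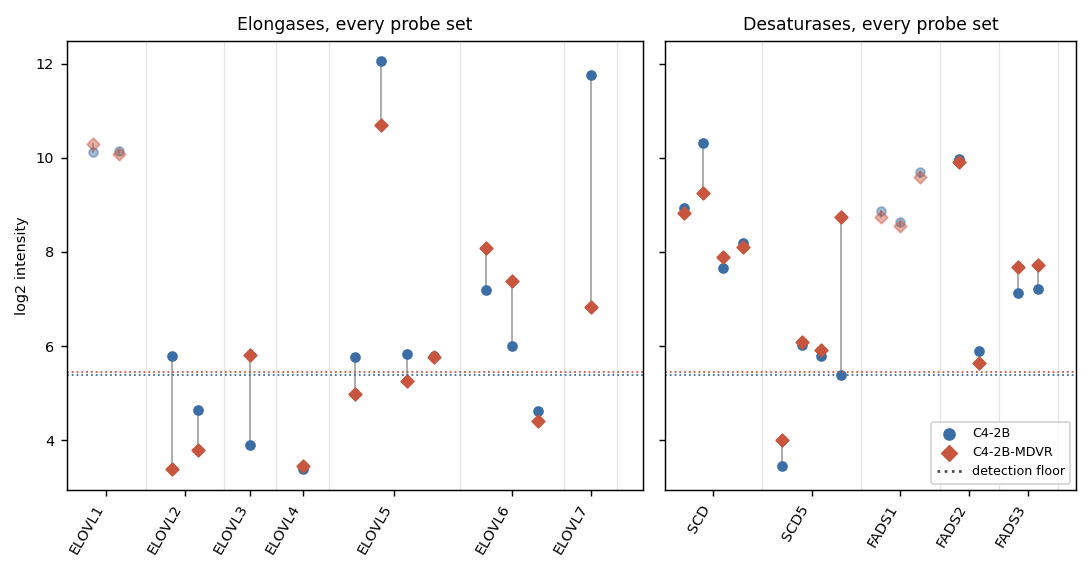
Log2 intensity in every probe set of the 7 elongases (left) and 5 desaturases (right) in C4-2B (circles) and C4-2B-MDVR (diamonds), with dotted lines at the detection floors; pale symbols are probe sets that also list a microRNA gene. ELOVL7 shows the longest bar downward and 1 SCD5 probe set the longest upward, while the other SCD5 and 3 of the 4 SCD probe sets differ by less than 2-fold.

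Promoter windows of 3 elongases are shown because their values differed by 2-fold or more, ELOVL7 and ELOVL5 lower and ELOVL3 higher. ELOVL3 was under the floor on the C4-2B array and is, by bound, only at least 1.34-fold higher. ELOVL7 (GRCh38.p14, chr5:60844270-60844519, minus strand) held 4 GC boxes and no other marked motif. ELOVL5 (chr6:53348951-53349200, minus strand) held 1 E-box and 2 CCAAT boxes. ELOVL3 (chr10:102226049-102226298, plus strand) held 3 GC boxes and 2 CCAAT boxes.
ELOVL7: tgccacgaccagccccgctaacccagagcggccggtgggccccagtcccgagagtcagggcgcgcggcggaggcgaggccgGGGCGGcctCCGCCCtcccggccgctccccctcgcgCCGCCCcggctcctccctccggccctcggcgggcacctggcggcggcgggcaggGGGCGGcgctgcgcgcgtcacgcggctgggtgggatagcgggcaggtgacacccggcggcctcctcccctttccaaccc
ELOVL5: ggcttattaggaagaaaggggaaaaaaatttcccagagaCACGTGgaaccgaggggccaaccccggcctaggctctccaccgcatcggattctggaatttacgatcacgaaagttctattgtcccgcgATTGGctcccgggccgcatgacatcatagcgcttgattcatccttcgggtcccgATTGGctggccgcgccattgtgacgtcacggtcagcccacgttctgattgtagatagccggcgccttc
ELOVL3: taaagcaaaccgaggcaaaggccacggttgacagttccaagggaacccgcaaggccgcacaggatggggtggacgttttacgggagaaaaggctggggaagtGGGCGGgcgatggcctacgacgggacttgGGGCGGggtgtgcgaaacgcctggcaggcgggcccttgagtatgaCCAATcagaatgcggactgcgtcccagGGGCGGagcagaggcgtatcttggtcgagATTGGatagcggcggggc

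The same letters were counted in the promoter windows of the members. RefSeq windows of GRCh38.p14 were at hand for 43 of the 51 members, of which 34 held a GC box, 17 a CCAAT box, 5 an E-box and 2 the sterol regulatory element TCACNCCAC (GTGGNGTGA on the other strand), the kind of site SREBP proteins bind. Each gene was read in 1 window, at its start farthest upstream. Read in the same way, the shares over all 27305 genes with a RefSeq window, on the array or not, were 42.2%, 33.0%, 6.46% and 0.868%. Over the 10792 of them above the floor on the arrays they were 65.1%, 34.9%, 8.84% and 0.843%. Of the 7 members 2-fold or more lower with a window, 6 held a GC box, 2 a CCAAT box, 1 an E-box and 0 the sterol element. FASN and AGPAT5, the other lower members, had no window, so their promoters were not read. Of the 2 higher members, SCD5 and ELOVL3, 2 held a GC box and 2 a CCAAT box. The calls of ELOVL2 among the lower and ELOVL3 among the higher rest on a value under the floor. Marked motifs did not overlap each other in the 6 windows printed. These are matches of letters in 250 bases, and they do not show binding.

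The other enzymes of the elongation cycle stayed within 2-fold. HACD2, a dehydratase of the cycle, went from 1588 to 1070 (−0.57) and from 435 to 298 (−0.55) in its 2 probe sets. HACD3, its relative, was higher in all 4 probe sets, by 0.23 to 0.47, with 1463 and 1960 in the one that stands for it. HSD17B12, the ketoacyl-CoA reductase, was at 435 and 471 (0.12). TECR, the last reductase of the cycle, was at 1004 and 890 (−0.17). The steps shared by all elongases thus showed no difference near that of ELOVL7.

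Among the long-chain acyl-CoA synthetases ACSL1 was lower and little else could be read. ACSL1, which activates fatty acids for oxidation and for lipid synthesis, went from 1094 to 389, 2.81-fold lower (−1.49). Its other probe set went from 801 to 327 (−1.29), so the 2 probe sets gave similar values. ACSL6, the form of brain and red cells, was at 51.9 and 58.2 (0.17), near the floor. Its remaining probe sets were under the floor on both arrays, at most at 17.8. ACSL4, which prefers arachidonate, was under the floor on both arrays in all 3 probe sets, at most at 10.3. ACSL5, a form of gut and liver, was under it as well, at 22.0 and 33.4.

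In glycerolipid assembly AGPAT5 was 2-fold or more lower and 0 members were higher among 9 above the floor, beside 3.50% and 3.17% of all genes. AGPAT5, an acyltransferase that adds the second fatty acid to glycerol phosphate, went from 719 to 310, 2.32-fold lower (−1.21), and from 99.8 to 49.5 (−1.01) in its other probe set. AGPAT1, the main enzyme for that step in many tissues, was at 615 and 625 (0.02). AGPAT2, the form of adipose tissue and liver, was at 132 and 181 (0.45). AGPAT4 was under the floor on both arrays. The acyltransferases therefore did not share a direction.

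GPAM, the mitochondrial enzyme that adds the first fatty acid, was at 316 and 237 (−0.42), with 0.09 in its other probe set. The lipins remove phosphate from phosphatidic acid to give diacylglycerol. LPIN1 was at 402 and 358 (−0.17) and LPIN2 at 230 and 194 (−0.25), while LPIN3 was at 40.3 and 62.1, below the C4-2B floor and, by bound, at least 1.48-fold higher. DGAT1 and DGAT2, unrelated enzymes that both complete triglyceride, differed in opposite directions. DGAT1 went from 189 to 103, 1.84-fold lower (−0.88). DGAT2 went from 270 to 413, 1.53-fold higher (0.61), and from 174 to 223 (0.36) in its other probe set. Neither reached 2-fold, and the DGAT1 value has 1 probe set behind it.

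Fatty acid carriage and storage proteins were dim or within 2-fold. FABP5, a carrier of fatty acids in the cytosol, was under the floor on both arrays at 20.7 and 13.4. PLIN2, a coat protein of lipid droplets, was near the floor at 48.6 and 49.1 (0.01). Its other probe set was under the floor on both arrays, at 22.7 and 18.9. PNPLA2, the lipase that starts the breakdown of stored triglyceride, was at 928 and 1231 (0.41), and at 105 and 135 (0.37) in its other probe set.

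Read singly, 77 member probe sets passed the floor, and 12 of them (15.6%) showed a 2-fold or larger decrease, beside 4.06% of the 24087 named probe sets above the floor, and 3 (3.90%) were higher, beside 2.75%. The 3 higher ones belonged to SCD5, ELOVL3 and ELOVL6. Of 24 members with 2 or more probe sets above the floor, 8 had probe sets on both sides of 0, beside 38.5% of all 6261 such genes. In 6 of the 24, namely SCD5, FASN, ELOVL5, ACACA, SCD and SREBF1, the probe sets spanned more than 1, beside 8.86% of such genes. In 3 members, ACSL1, ME1 and AGPAT5, every readable probe set was lower by 2-fold or more. The widest span, 3.28, was that of SCD5.

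**Figure D4:**
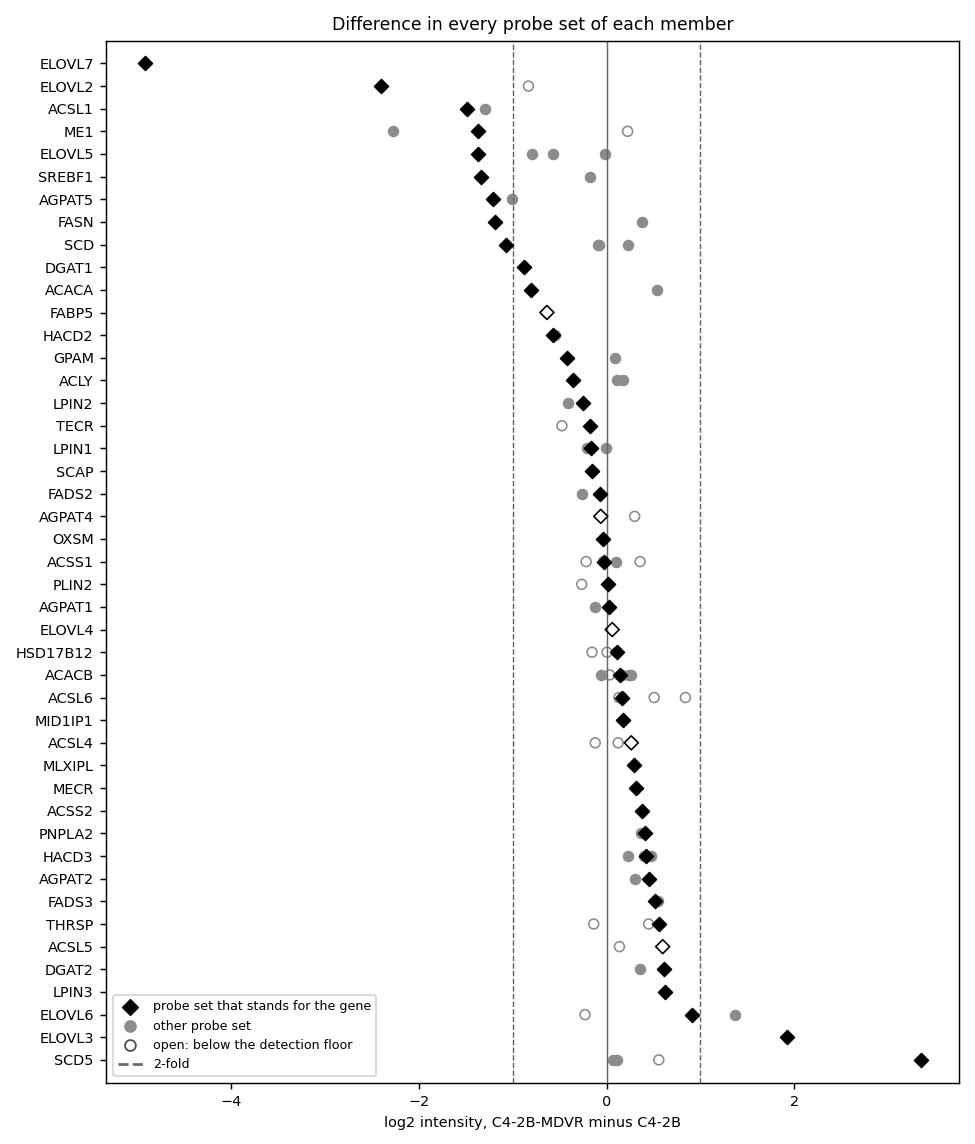
Log2 difference, C4-2B-MDVR minus C4-2B, in each of the 105 probe sets of the 45 measured members, ordered by the probe set that stands for the gene (diamonds); open symbols are under the detection floor and dashed lines mark 2-fold. FASN, SCD and ACACA have probe sets on both sides of 0, whereas those of ACSL1 and AGPAT5 lie close together.

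Genes of the wider pathway outside the members included PPARG and ACSM3 on the higher side and LPL and PRKAA2 on the lower. Of 96 listed genes 87 were measured and 77 were above the floor, of which 2 (2.60%) were 2-fold or more lower and 5 (6.49%) higher, beside 3.50% and 3.17% of all genes. Among lipogenic regulators PPARG, the nuclear receptor that drives fat cell formation, went from 58.3 to 221 (1.92) in its 1 probe set. PRKAA2, a catalytic subunit of the energy sensor AMPK, went from 145 to 52.2 (−1.47). Of its other readable probe sets 1 differed by −0.32, and 1, at 45.6 and 23.5, had its second value under the floor, a bound of at least 1.05-fold lower. SREBF2, the cholesterol-directed relative of SREBF1, was at 266 and 229 (−0.22). INSIG1, which retains SREBP proteins in the endoplasmic reticulum and is itself an SREBP target, was at 711 and 430 (−0.73), and INSIG2, with the same role, went the other way, from 200 to 314 (0.65). In all, 1 of the 14 regulators was 2-fold or more lower and 1 higher.

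Citrate and NADPH supply had 0 of 8 genes beyond 2-fold in either direction, beside 3.50% of all genes lower and 3.17% higher. SLC25A1, which exports citrate from mitochondria, was at 556 and 598 (0.10), and ME2 and ME3, the mitochondrial malic enzymes, were at −0.08 and 0.23 beside the −1.37 of ME1. In fatty acid uptake and binding 1 of 9 was lower and 0 higher, beside the same shares. The lower gene was LPL, the lipase of circulating triglyceride, at 104 and 29.8 (−1.80), by bound at least 2.39-fold lower. Its second probe set was under the floor on both arrays. Among other acyl-CoA synthetases and thioesterases 1 of 7 was higher and 0 lower, beside the same shares. ACSM3, a medium-chain acyl-CoA synthetase, went from 150 to 499 (1.73), with 2.07 in its other probe set.

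Phospholipid synthesis and remodelling had 2 of 24 genes higher and 0 lower, beside 3.17% and 3.50% of all genes. MBOAT1, a lysophospholipid acyltransferase, went from 46.0 to 153 (1.73), and LPCAT4, another, from 137 to 304 (1.15), with 0.34 to 0.90 in its other 3 probe sets above the floor, 1 of them under it in C4-2B. Among lipid droplet and lipolysis genes 1 of 15 was higher and 0 lower, beside the same shares. PLPP2, a lipid phosphate phosphatase, went from 67.9 to 219 (1.69) in its 1 probe set.

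Neighbouring genes were read beside each member beyond 2-fold, taking the nearest 2 protein-coding genes above the floor on either side in the gene order of GRCh38.p14. Around the 9 lower members 24 of 36 neighbours were below 0 and 3 were 2-fold or more lower, beside 3.50% of all genes, with a median of −0.27. Of all genes above the floor 6019 of 13437 were below 0. All 4 neighbours of ACSL1 were below 0, CFAP97 most at −1.26, as were all 4 of AGPAT5, with PRAG1 at −2.35. Beside ELOVL2, SMIM13 was at −1.24 and NEDD9 at 0.93. Around ELOVL7, DEPDC1B was at −0.93, ERCC8 at −0.58 and NDUFAF2 at −0.51, and PDE4D at 0.58. The part of neighbouring genes in the lower values of these members was not tested. All 4 neighbours of SCD were above 0, between 0.16 and 0.33, and those of SREBF1 and FASN had medians of −0.13 and −0.10. Beside SCD5 the 4 neighbours lay between −0.37 and 0.17.

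**Figure D5:**
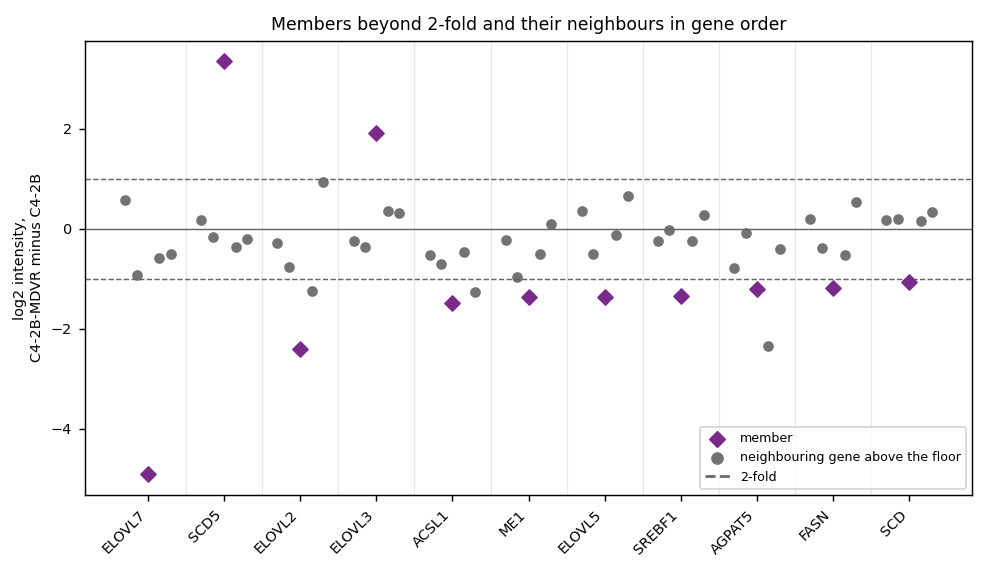
Log2 difference, C4-2B-MDVR minus C4-2B, of the 11 members beyond 2-fold (diamonds) and of the nearest 2 genes above the floor on either side (circles, in gene order), with dashed lines at 2-fold. The neighbours of ACSL1 and AGPAT5 all lie below 0 and those of SCD all above it, and PRAG1 beside AGPAT5 is lower than AGPAT5 itself.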

How the data were processed

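Per the labels' protocols, 100 ng of total RNA from each line was amplified, labelled with biotin and measured on an Affymetrix array. Each deposited value is a probe set's intensity, and the range shows a linear scale. How the authors corrected background, normalized and summarized is not given in the sources used here. Log2 was taken of the values as they stand. The table held 0 further sample columns. The platform annotation of 2016 gave the gene names (41097 with 1 symbol, 1801 with several), which were checked by Entrez identifier against RefSeq with 0 symbols changed. The highest-mean probe set stood for a gene. Differences were counted at 2-fold among genes above the floor. No test was possible, so lists are described by counts and medians beside all genes. All members are reported, and pathway genes outside them are named where 2-fold or more different. SREBF2, INSIG1, INSIG2, SLC25A1, ME2 and ME3 fall outside this rule and were chosen after their values were seen. Members, lists and thresholds were chosen with earlier results of these data known. Promoter sequences are RefSeq's. No protein sequence was used. The calculation was tested on simulated data. Python 3.11.15, numpy 2.4.6, pandas 2.3.3, statsmodels 0.14.6 and matplotlib 3.10.9 were used.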

Additional observations from a re-analysis of the deposited data

How the results depend on the processing

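Median centring, quantile normalization and loess (span 0.3) changed the call of 0 of the 47 genes followed and kept 9 lower and 2 higher members. In that order, 3.96%, 3.16% and 3.55% of all genes were lower and 2.90%, 3.31% and 3.07% higher. No called gene changed sign in the alternative runs that kept it. FASN, SCD, LPL and PPARG dropped out without probe sets ending in _x_at or _s_at. ELOVL2 dropped out with the mean of all probe sets, and ELOVL2, ELOVL3, PRKAA2 and LPL with a floor at the 75th percentile. The count of lower members was 4 with the mean of all probe sets of a gene (11.8%, beside 2.57% of genes). It was 5 with the mean of those above the floor (12.5%, beside 3.07% of genes) and 2 at 3-fold (5.00%, beside 1.20%). SREBF1 (−0.76), FASN (−0.41), SCD (−0.26) and ELOVL5 (−0.69) lost their calls with either mean, as did LPCAT4 outside the members (0.59 and 0.70), and PRKAA2 lost its call with the second (−0.92). The count of higher members was 1 with a floor at the 75th percentile (3.12%, beside 3.28% of genes), 1 when lower values were set to the floor (beside 2.76% of genes), and 5 at 1.5-fold (12.5%, beside 8.26%). With the 75th percentile floor the median of members was −0.16. Lower member probe sets numbered 3 of 77 at 3-fold, and higher ones 6 of 77 at 1.5-fold. Shares over all probe sets were not computed at these thresholds. Lower pathway genes outside the members numbered 0 with the 75th percentile floor, beside 4.21% of all genes. Without probe sets ending in _x_at or _s_at they numbered 1, beside 4.45%. At 3-fold 1 of 77 was lower, beside 1.20%. At 1.5-fold 4 of 77 were lower and 11 higher, beside 9.32% and 8.26%. Counting probe sets that also list a microRNA gene, an alternative added after seeing the data, left 9 lower and 2 higher of 42 members. These were 21.4% and 4.76%, beside 3.48% and 3.16% of genes. The cause was not tested. Signal over background limits ELOVL2, ELOVL3, THRSP and LPIN3, which had 1 array under the floor. No paired analysis was possible because each line has 1 array and the labels carry no replicate numbers.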
